A study of Mus musculus with 4 samples.

Results

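The genes described here are the lectin-like receptor genes of mouse chromosome 6, most of which lie in the natural killer gene complex. They were taken as the rows of the deposited H3K27me3 enrichment table that lie on chromosome 6 and carry a symbol beginning with Klr and a letter or with Clec and a digit, which gave 58 of 22691 rows. All 58 had a value in both genotypes. The values came from chromatin immunoprecipitation followed by sequencing (ChIP-seq) of embryonic fibroblasts from female fetuses of strain C57BL6/J at stage E13.5. Smchd1 +/+ cells (WT) were compared with Smchd1 MD1/MD1 cells (MD1), which carry a mutant allele of the chromatin protein SmcHD1 on both homologues and are described as deficient for it. Each genotype had 1 ChIP library, made with the monoclonal antibody CMA323, and 1 input library, so no error between samples, no test and no p-value can be given, and whether a library pooled several fetuses is not stated. A value is the log2 enrichment of a gene with a listed interval. Whether the whole interval was counted is not stated, nor is the denominator.

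Trimethylation of histone H3 at lysine 27 is written by Polycomb repressive complex 2 and marks genes that are held silent. The receptors of the natural killer gene complex are C-type lectin-like membrane proteins. Those of the Klr families are carried mainly by natural killer cells and some T cells and recognise class I molecules, their relatives or other lectin-like proteins, whereas many Clec receptors are carried by myeloid cells and recognise microbes or damaged cells. Inhibitory members signal through phosphatases recruited to their cytoplasmic tails, and activating members through adaptor proteins such as DAP12. Fibroblasts are not known as users of most of these receptors. Expression was not measured here.

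The label natural killer gene complex held for 44 of the 58 rows. These formed an unbroken chain, with starts under 1 Mb apart, from Klrb1a at 128559245 to Klra2 ending at 131197380 (mm9). A further 10 rows, Klrg1 and the dectin-2 group from Clec4a1 to Clec4e, lay between 122220619 and 123239889. The other 4, Klrg2, Clec2l, Clec5a and Clec4f, lay far from the complex, between 38576660 and 83606110. The 58 rows carried 60 symbols, because Klra1, Klra15 and Klra22 shared a row. Of these symbols 54 were found on chromosome 6 in the RefSeq gene table, which classes 3 of them as pseudogenes, and Klra12, Klra15, Klra18, Klra19, Klra21 and Klra22 were not matched.

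Several rows cannot be taken as separate measurements. The intervals of 17 rows overlapped another listed row, and 15 of these were Klra genes. Klra6 and Klra19 covered the same place to within a few bases and had identical values in both genotypes. Klra4 and Klra18 shared 23242 bp, which is 99.9% of Klra4 and 98.8% of Klra18. Klra8 lay almost wholly within Klra21, and Klra13-ps wholly within Klra23. The row of Klra1, Klra15 and Klra22 spanned 414793 bp and contained 14 other rows, and the Klra12 row spanned 262458 bp and overlapped 11 listed rows including that one. Reduced to 1 row per place, with the shortest kept, 52 rows remained, 12 of them Klra genes. Members of the Klra family are also related in sequence, and their gene bodies were not compared here. Reads may map to several of them, and how such reads were counted is not stated.

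The receptor genes stood close to the middle of the genome in H3K27me3, with a median well above that of genes typical of fibroblasts. The median over the 58 rows was -0.61 in WT and -0.50 in MD1, at percentiles 52.9 and 56.6 of the 19836 autosomal genes with values in both genotypes. The autosomal medians were -0.78 and -0.90. A list of 12 fibroblast genes, such as the collagen genes Col1a1 and Col3a1, had medians of -2.61 and -2.91, whereas 9 leukocyte genes, such as Cd3e and Spi1, had medians of 0.98 (WT) and 0.995 (MD1), and 4 epithelial genes had 1.30 and 1.15. Smchd1 itself stood at -2.44 in WT and -3.47 in MD1, which does not check the genotype, since the table reports a mark and not RNA.

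**Figure D1:**
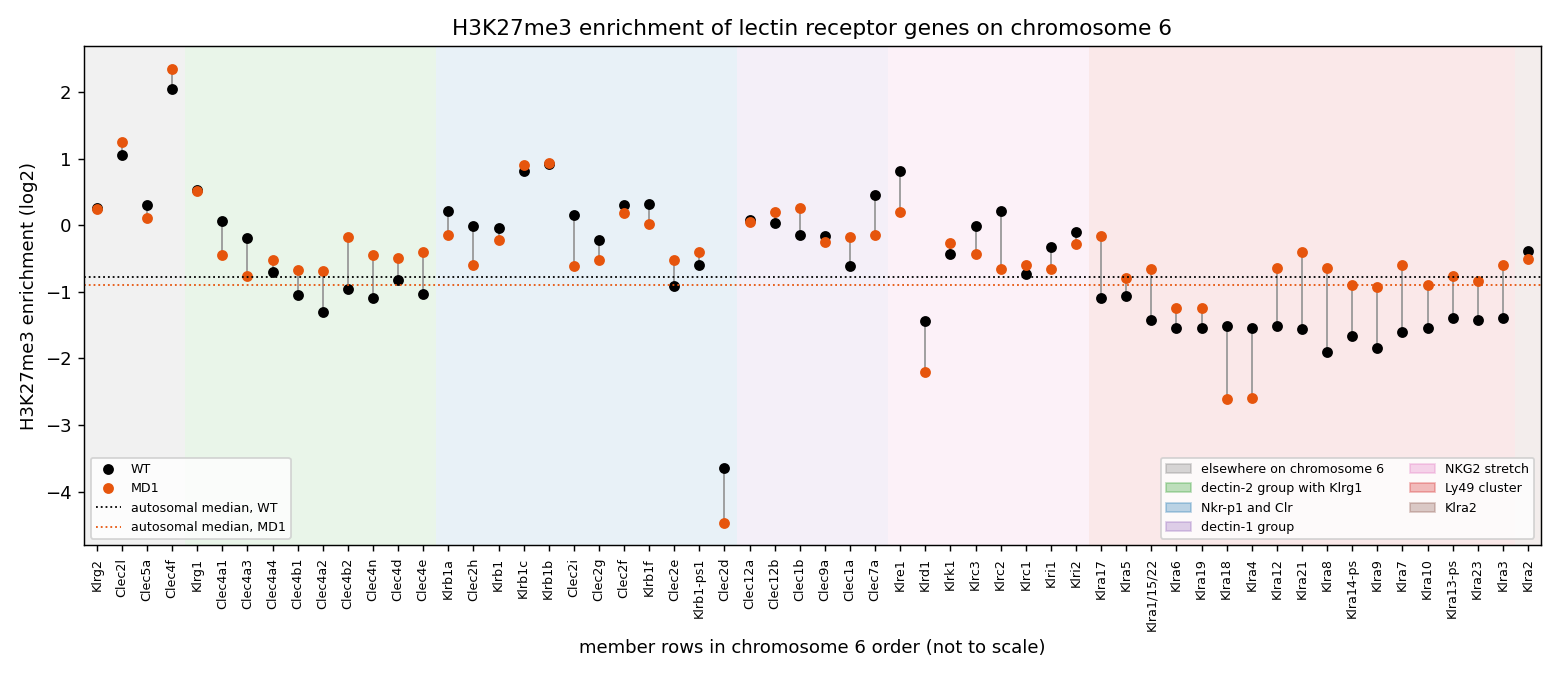
H3K27me3 enrichment (log2) of the 58 rows in chromosome 6 order, equally spaced and not to scale, with WT in black and MD1 in orange, 1 value per genotype and therefore no error bars. Dotted lines are the autosomal medians of -0.78 (WT) and -0.90 (MD1). Clec4f is the highest row and Clec2d the lowest in both genotypes, and in the Ly49 cluster MD1 lies above WT except at Klra18 and Klra4.

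Levels differed more between genes than between genotypes. Clec4f, which encodes a receptor of liver macrophages, had the highest value, 2.04 in WT and 2.35 in MD1, at percentiles 96.8 and 97.9 of autosomal genes. Clec2l, which encodes a lectin-like protein of the nervous system, followed with 1.06 and 1.25. Both lie outside the complex. Within it the highest were Klrb1b, with 0.91 and 0.94, and Klrb1c, with 0.81 and 0.90. The lowest by a wide margin was Clec2d, with -3.64 in WT and -4.46 in MD1, at percentiles 1.18 and 5.26. Clec2d encodes Clr-b, which is displayed by most cell types and is recognised by an inhibitory Nkr-p1 receptor. Whether its low value goes with its use in these cells was not tested. The next lowest WT value was -1.90, at Klra8.

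The promoters of these genes were poor in CpG, the dinucleotide whose clusters attract Polycomb complexes. Promoter windows of 300 bases around the transcription start were found in the RefSeq table (GRCm38.p6) for 42 of the 58 rows, with the first window taken where a gene had several. The median window held 2.5 CpG, against 16.0 over 14749 autosomal genes with values. The motif CG is its own reverse complement, so both strands give the same count. It occurred in 38 of the 42 windows (90.5%) and in 97.1% of the autosomal ones, and 37 of 42 (88.1%) held at most 5, against 26.0% of the autosomal ones. The 5 windows printed here, 5′ to 3′ with each CpG in capitals, are those of the lowest row (Clec2d), the 2 highest rows (Clec4f and Clec2l), and a pair of neighbouring Ly49 genes that differed in opposite directions between the genotypes (Klra4 and Klra8).
Clec2d, chr6:129180365-129180664, plus strand: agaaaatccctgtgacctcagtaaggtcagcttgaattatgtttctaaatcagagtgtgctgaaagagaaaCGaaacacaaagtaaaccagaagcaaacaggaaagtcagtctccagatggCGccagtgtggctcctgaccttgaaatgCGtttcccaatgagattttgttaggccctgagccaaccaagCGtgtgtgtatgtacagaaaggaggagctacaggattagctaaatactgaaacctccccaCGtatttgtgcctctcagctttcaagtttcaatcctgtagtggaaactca
Clec4f, chr6:83656067-83656366, minus strand: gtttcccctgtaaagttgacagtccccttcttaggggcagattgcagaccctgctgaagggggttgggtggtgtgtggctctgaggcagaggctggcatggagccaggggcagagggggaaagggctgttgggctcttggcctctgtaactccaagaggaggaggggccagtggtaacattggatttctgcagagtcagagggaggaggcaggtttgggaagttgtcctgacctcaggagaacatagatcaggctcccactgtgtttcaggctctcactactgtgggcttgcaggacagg
Clec2l, chr6:38662819-38663118, plus strand: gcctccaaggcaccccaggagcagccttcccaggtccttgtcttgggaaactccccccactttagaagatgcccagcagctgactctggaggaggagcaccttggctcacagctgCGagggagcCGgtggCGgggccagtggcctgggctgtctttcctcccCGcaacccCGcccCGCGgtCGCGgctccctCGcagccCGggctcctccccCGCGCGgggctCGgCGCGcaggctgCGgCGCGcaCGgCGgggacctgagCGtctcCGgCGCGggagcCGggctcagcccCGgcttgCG
Klra4, chr6:130067222-130067521, minus strand: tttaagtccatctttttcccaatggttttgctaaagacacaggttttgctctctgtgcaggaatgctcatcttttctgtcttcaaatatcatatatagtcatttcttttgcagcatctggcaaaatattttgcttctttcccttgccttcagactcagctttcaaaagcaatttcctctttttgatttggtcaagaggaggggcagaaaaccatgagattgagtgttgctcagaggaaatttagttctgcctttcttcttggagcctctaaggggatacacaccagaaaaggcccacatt
Klra8, chr6:130129849-130130148, minus strand: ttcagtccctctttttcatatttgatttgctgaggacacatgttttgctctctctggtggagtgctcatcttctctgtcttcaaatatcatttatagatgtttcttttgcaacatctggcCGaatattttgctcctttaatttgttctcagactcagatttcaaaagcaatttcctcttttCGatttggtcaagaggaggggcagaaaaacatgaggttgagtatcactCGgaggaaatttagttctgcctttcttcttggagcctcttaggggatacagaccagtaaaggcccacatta

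Clec2l had the richest window, with 29 CpG, and Clec4f, with an even higher enrichment, had none. Clec2d had 5, within the range of the marked members, so the number of CpG in the window did not strictly order the members by enrichment. As groups they did differ. The 5 members with more than 5 CpG had medians of 0.26 (WT) and 0.25 (MD1), and the 37 with at most 5 had -0.39 and -0.51. Klrg2 had 12 CpG and Klrb1b had 7. The windows of Klra4 and Klra8 were 86.1% identical when aligned end to end, the highest of 45 pairs among 10 Klra genes, whose median was 54.7%. Klra4 had no CpG and Klra8 had 3. Whether the deposited intervals include the bases before the start is not stated.

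**Figure D2:**
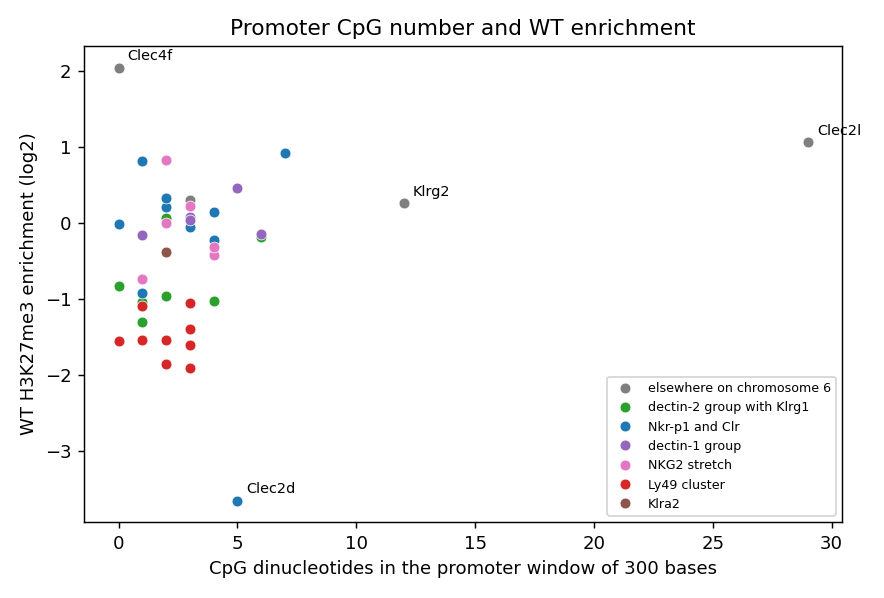
WT H3K27me3 enrichment (log2) against the number of CpG dinucleotides in the RefSeq promoter window of 300 bases, 1 point for each of the 42 rows with a window, coloured by stretch of chromosome 6. Most points lie at 5 CpG or fewer over the whole range from Clec2d (-3.64) to Clec4f (2.04), and Clec2l stands alone at 29 CpG.

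CpG-poor autosomal genes in general had higher medians than these receptors. The 3803 autosomal genes outside the set with at most 5 CpG had WT and MD1 medians of 0.16 and 0.10, and the 10904 with more had -1.52 and -1.93. The 37 members with at most 5 CpG had medians of -0.39 and -0.51. They stood between those classes. Klra genes had 10 of the member windows. The 40 members other than Klra, whatever their CpG number, had medians of -0.078 (WT) and -0.27 (MD1), nearer to the CpG-poor autosomal genes.

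For each row the WT value was subtracted from the MD1 value, so that a difference of 1 on the log2 scale is a 2-fold higher enrichment in MD1. Of the 58 rows, 33 had a positive difference (56.9%), against 31.0% of autosomal genes and 32.2% of the other 1049 chromosome 6 genes. The median difference was 0.16 (quartiles -0.30 and 0.61), while the autosomal median was -0.27 (quartiles -0.85 and 0.09). At least 2-fold lower in MD1 were 2 rows (3.45%), against 20.4% of autosomal genes, and at least 2-fold higher were 3 rows (5.17%), against 1.61%. Among autosomal genes with at most 5 CpG outside the set, 6.18% were at least 2-fold lower, 2.84% were at least 2-fold higher and 47.2% had a positive difference. All 5 rows past the limit were Klra genes. Without the 18 Klra rows the median difference was -0.014 and 18 of 40 rows were positive.

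**Figure D3:**
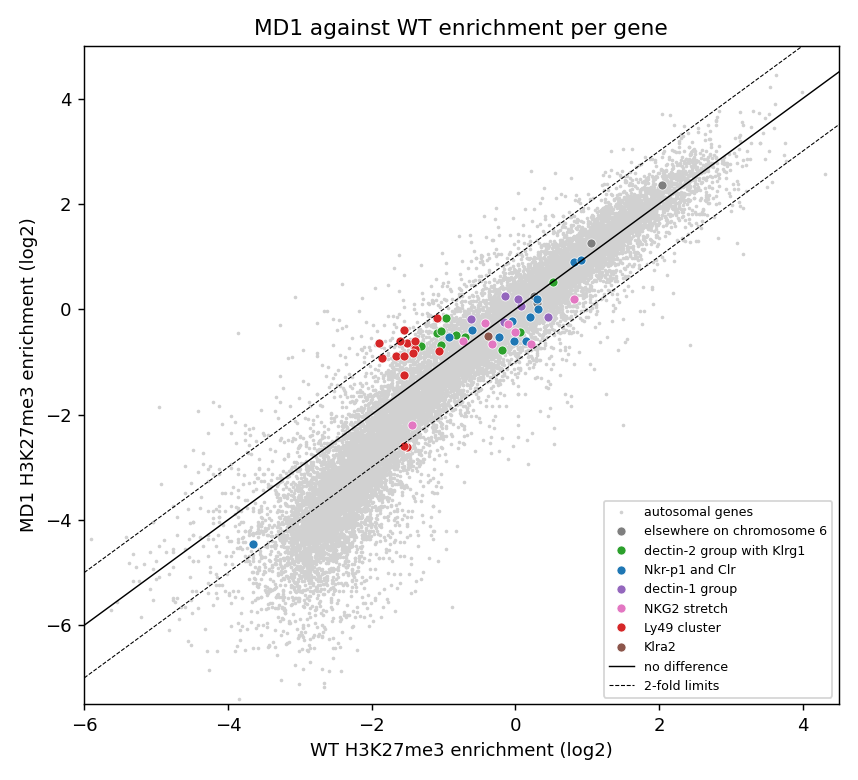
MD1 against WT H3K27me3 enrichment (log2) for 19836 autosomal genes (grey) and the 58 rows, coloured by stretch of chromosome 6, with the line of no difference and dashed 2-fold limits. Most Ly49 rows lie at the upper edge of the grey cloud at WT values near -1.5, Klra4 and Klra18 lie within the cloud just past the lower limit, and Clec2d lies at the lower left.

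Autosomal genes with low values were lower still in MD1, so each difference was also set against genes of like level. The level-matched difference is a gene's difference minus the median difference of the 500 autosomal genes outside the set that were nearest in mean level within the same quartile of gene length. By this measure 35 of 58 rows were positive, against 49.6% of autosomal genes, with a median of 0.22. None of the 58 was at least 2-fold lower, against 3.40% of autosomal genes, and 6 were at least 2-fold higher, against 3.16%. Those 6 were the rows of Klra7, Klra8, Klra9, Klra12, Klra17 and Klra21, several of which share sequence on overlapping rows. Klra12 and Klra21 are symbols not matched in RefSeq, and with 1 row per place 4 rows passed.

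The Ly49 cluster, 17 Klra rows between 129781172 and 130336892, was the stretch with the largest differences. Ly49 receptors bind class I molecules of the major histocompatibility complex on other cells and let natural killer cells judge whether those cells are intact. In WT all 17 rows lay within a narrow low band from -1.90 to -1.06, with a median of -1.54 at percentile 37.7 of autosomal genes. In MD1 the median was -0.80, at percentile 51.5. Higher in MD1 were 15 of the 17 rows (88.2%), against 31.0% of autosomal genes and 47.2% of CpG-poor ones outside the set. The median difference was 0.77 (quartiles 0.29 and 0.92), or 0.96 when level-matched. In the 11 places left after thinning, 10 were higher and the median difference was again 0.77. The other 27 rows of the complex had medians of -0.048 (WT) and -0.26 (MD1), so that the Ly49 rows lay 1.49 below them in WT and 0.54 below them in MD1.

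Receptors of both signalling types were among the higher rows. Klra8 (130065244 to 130079916) encodes Ly49H, an activating receptor that recognises a mouse cytomegalovirus protein and gives C57BL/6 mice resistance to that virus. Its values were -1.90 (WT) and -0.65 (MD1). This difference of 1.25, or 2.38-fold, was the largest of the 58, and was 1.47 when level-matched, where the matched genes had a standard deviation (SD) of 0.50. Klra21, the longer row around it, stood at -1.55 and -0.40. Klra7 (130168623 to 130183340), encoding the inhibitory receptor Ly49G, stood at -1.61 and -0.60, a 2.01-fold difference just past the limit. Klra9, encoding the inhibitory Ly49I, stood at -1.85 and -0.93, a 1.90-fold difference just inside it. Klra3, encoding the inhibitory Ly49C, stood at -1.40 and -0.59. The genes for these receptors lie interspersed along the cluster.

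Klra17, at the edge of the cluster nearest to the NKG2 genes, was one of the rows that overlapped no other. It encodes Ly49Q, which is carried by plasmacytoid dendritic cells and other myeloid cells rather than by natural killer cells. Its values of -1.09 (WT) and -0.16 (MD1) gave a difference of 0.92, or 1.09 when level-matched, with an SD of 0.29 among its matched genes. Its neighbour Klra5, encoding Ly49E, also overlapped no other row and stood at -1.06 and -0.80. The difference at Klra5, 0.26, was smaller than the SD of 0.48 among its matched genes. Klra10 stood at -1.54 and -0.89, and the pseudogene Klra14-ps at -1.66 and -0.89. Klra13-ps, another pseudogene, stood at -1.40 and -0.76, and Klra23, whose interval contains it, at -1.43 and -0.83. In lowest terms the WT ratios were 1 to 3 at Klra6 and Klra10 and 7 to 19 at Klra3 and Klra13-ps. The counts behind such ratios may be these numbers or any multiple of them, so how many reads these WT values rest on is unknown. The 2 long rows, which cover much of the cluster, gave -1.42 and -0.65 (Klra1, Klra15 and Klra22) and -1.51 and -0.63 (Klra12).

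Klra4 stood apart within the cluster. It encodes Ly49D, an activating receptor that signals through DAP12. Klra4 (129994035 to 130017289) stood at -1.55 in WT, amid the other Ly49 rows, but at -2.59 in MD1. It thus differed by -1.04, and the Klra18 row at the same place gave -1.51 and -2.61. Since the rows share nearly all of their bases, they count as 1 observation. In the ratio form of the table, reduced to lowest terms, Klra4 was 69 to 208 in WT and 48 to 283 in MD1, so its MD1 value does not rest on a handful of reads if numerator and denominator are ChIP and input counts. Level-matched, the difference was -0.46, with an SD of 0.37, since its matched genes had a median difference of -0.58. Klra6, the next place towards the NKG2 genes, encodes Ly49F and stood at -1.54 and -1.25, and Klra21, on the other side, was 2.22-fold higher in MD1. Without Klra4 and Klra18 the spread across Ly49 rows was an SD of 0.23 in WT and 0.28 in MD1, and with them it was 0.21 and 0.67. These rows overlap, and over the 11 places left after thinning, which include Klra4, the SD was 0.27 and 0.62.

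Klra2 lay outside this block, at 131169253 to 131197380. It encodes Ly49B, a receptor of myeloid cells. Klra2 stood at -0.39 in WT and -0.51 in MD1, above the Ly49 rows of the cluster in WT, and its difference was -0.13. The family as a whole was thus not uniform: the rows in the block shared low WT values and Klra2 did not.

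**Figure D4:**
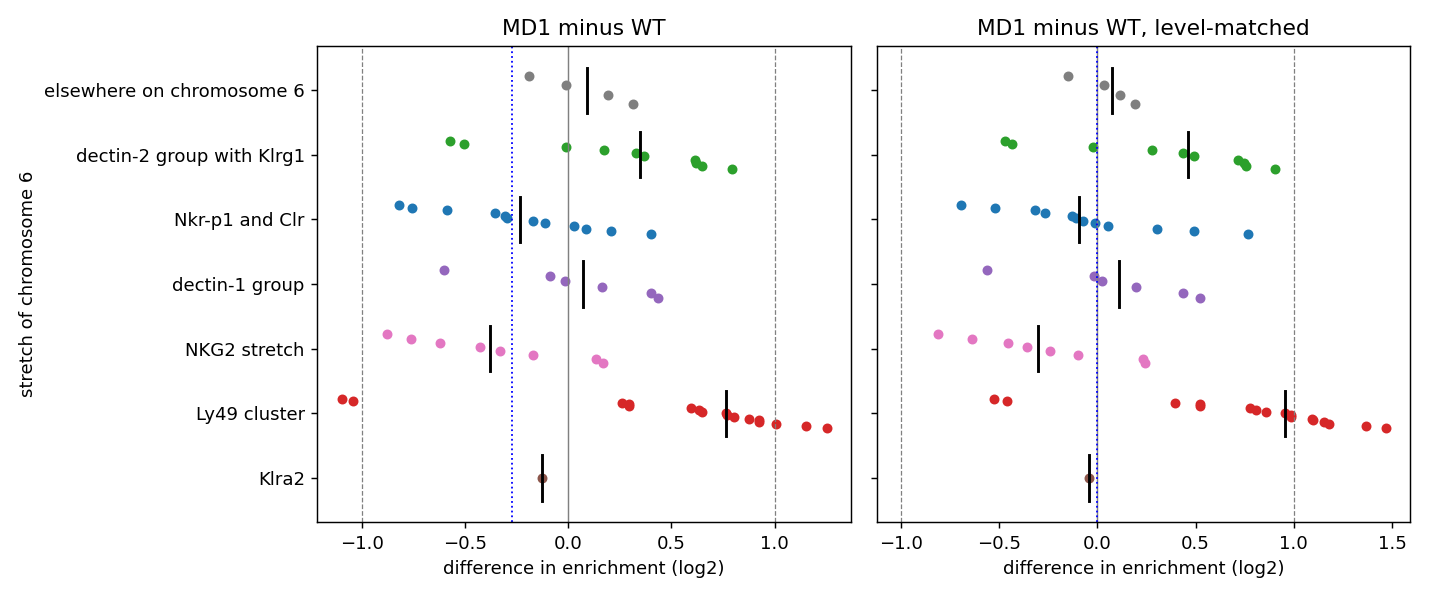
MD1 minus WT (log2) for the 58 rows by stretch of chromosome 6, as deposited (left) and level-matched (right). Each point is 1 row, black bars are medians, dotted blue lines the autosomal medians and dashed lines the 2-fold limits. The Ly49 cluster has the highest median, 0.77 and 0.96, with Klra4 and Klra18 at its lower end, and the NKG2 stretch has the lowest, -0.38 and -0.30.

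The NKG2 stretch, next to the Ly49 cluster, had a median difference of -0.38, near the autosomal median of -0.27. Its 8 rows from Klre1 to Klri2 had medians of -0.21 (WT) and -0.52 (MD1), and 6 of 8 were lower in MD1, a share near the 69.0% of autosomal genes. Klrd1 encodes CD94, which pairs with NKG2 chains to bind the class I-like molecule Qa-1. Klrd1 (129541829 to 129548793) was the lowest of them, at -1.43 and -2.20, and its difference of -0.76 was smaller than the SD of 0.95 among its matched short genes. Its partner genes differed among themselves. Klrc1, which encodes the inhibitory chain NKG2A, stood at -0.73 and -0.60. Klrc2 and Klrc3, which encode the activating chains NKG2C and NKG2E, stood at 0.22 and -0.66 and at -0.0057 and -0.44. The Klrc2 difference of -0.88 was the largest of the stretch, at 1.84-fold, with an SD of 0.77 among its matched genes.

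Klrk1, encoding the activating receptor NKG2D, stood at -0.43 and -0.26, a difference of 0.17. Klre1, which pairs with the products of Klri1 or Klri2, stood at 0.82 in WT and 0.20 in MD1. Klri1 stood at -0.32 and -0.65, and Klri2 at -0.11 and -0.28. The level-matched median of the 8 rows was -0.30, with no row past the 2-fold limit.

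At the other end of the complex the Nkr-p1 receptor genes (Klrb1) alternate with the Clec2 genes that encode their ligands, the Clr proteins. Over 12 rows the medians were 0.067 in WT and -0.31 in MD1, and 8 were lower in MD1, none by 2-fold, a share near the 69.0% of autosomal genes that were lower. Of the 6 receptor rows 3 were lower and 3 higher. The receptor genes Klrb1c and Klrb1b, side by side, were the most enriched and nearly equal in both genotypes. Klrb1c encodes the activating receptor bearing the natural killer cell marker of C57BL/6 mice. Klrb1a stood at 0.21 and -0.15, Klrb1 at -0.048 and -0.22, and Klrb1f at 0.32 and 0.014. The pseudogene Klrb1-ps1 stood at -0.60 and -0.40.

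Among the ligand genes 5 of 6 were lower in MD1, none by 2-fold, against 69.0% and 20.4% of autosomal genes. Their level-matched median difference was -0.10. Clec2i, which encodes Clr-g, stood at 0.15 and -0.61, a difference of -0.76, and its interval overlaps BC035044. Clec2h stood at -0.013 and -0.60, a difference of -0.59. Clec2g, whose interval overlaps Gm15987, stood at -0.23 and -0.52, and Clec2f at 0.31 and 0.19, the latter on a short interval with ratios in lowest terms of 6 to 5 and 7 to 6. Clec2e was the exception, at -0.92 in WT and -0.52 in MD1. Clec2d differed by -0.82, but genes as low and as short as it had a median difference of -1.59 with an SD of 1.21, so its level-matched difference was 0.77. Its ratios in lowest terms were 9 to 116 and 5 to 108, so few ChIP reads may lie behind either value.

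The dectin-1 group, 6 Clec genes between the Clr and NKG2 genes, had a median difference of 0.072, the closest to 0 among the stretches of the complex. Its medians were -0.055 in WT and -0.042 in MD1, with 3 rows higher and 3 lower. Clec7a encodes dectin-1, the receptor for fungal beta-glucan, and stood at 0.46 and -0.14, the largest difference of the group at -0.60. Clec1a, which encodes a receptor for fungal melanin, and Clec1b, encoding the podoplanin receptor of platelets, differed the other way, from -0.61 to -0.18 and from -0.14 to 0.25. Clec12a, encoding an inhibitory myeloid receptor, stood at 0.074 and 0.057, and Clec12b at 0.034 and 0.19. Clec9a, encoding the dendritic cell receptor for actin exposed by dead cells, stood at -0.16 and -0.25. None of the 6 differences reached 2-fold.

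In the dectin-2 group, which precedes the complex, the sign changed along the chromosome. The group encodes myeloid receptors for microbial glycolipids and mannans. Its 9 rows overlapped no other listed gene, and their medians were -0.96 (WT) and -0.50 (MD1). The first rows in chromosome order, Clec4a1 and Clec4a3, were lower in MD1, from 0.067 to -0.44 and from -0.19 to -0.76. Of the 9 rows 77.8% were higher in MD1, against 31.0% of autosomal genes and 47.2% of CpG-poor ones outside the set. The higher rows were the 7 from Clec4a4 to Clec4e. Clec4b2 had the largest of these differences, from -0.96 to -0.17, followed by Clec4n, which encodes dectin-2, from -1.09 to -0.44. Clec4e, encoding Mincle, stood at -1.03 and -0.41, Clec4d, its partner, at -0.82 and -0.50, and Clec4a2, encoding the inhibitory receptor DCIR, at -1.31 and -0.69. Clec4b1 stood at -1.04 and -0.67, and Clec4a4 at -0.70 and -0.52. In MD1 the 9 rows lay closer together, with an SD of 0.18 against 0.45 in WT.

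The remaining rows differed little. Klrg1, an inhibitory receptor that binds cadherins, stood at 0.53 in WT and 0.51 in MD1. Klrg2 stood at 0.26 and 0.25, and Clec5a, a myeloid receptor that signals through DAP12, at 0.30 and 0.11. For Clec4f and Clec2l the differences were 0.31 and 0.19.

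Of 11 other genes listed as neighbours, of which A2m, Mug1 and Mug2 lie before Klrg1 and outside the complex as defined here, 7 were lower in MD1, against 69.0% of autosomal genes. At least 2-fold lower were 3 of the 11, against 20.4%, so both shares were near the background. The lectin-like genes Cd69, an early activation marker of lymphocytes, and Olr1, a receptor for oxidised lipoprotein, fall outside the symbol rule. Cd69 stood at 0.79 and -0.19 and Olr1 at -0.39 and -0.13. Beyond Klra2, the kinase gene Styk1 stood at -0.80 in WT and -2.63 in MD1, or -1.51 when level-matched, and the cold-shock protein gene Ybx3 at -2.48 and -4.72. The autophagy gene Gabarapl1, between the dectin-1 group and Klre1, stood at -2.60 and -3.90, which was -0.036 when level-matched.

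Lists of partner genes, nearly all on other chromosomes, had higher medians than the receptors. The 15 signalling genes had medians of 0.46 (WT) and 0.73 (MD1). Bcl10 and Ptpn11 were lower in MD1 by at least 2-fold, and 1 gene, the X-linked adaptor gene Sh2d1a, was at least 2-fold higher, against 20.4% and 1.61% of autosomal genes. Tyrobp, which encodes DAP12, stood at 1.72 and 1.48, Hcst, which encodes the NKG2D adaptor DAP10, at 0.96 and 0.73, and the phosphatase gene Ptpn6 at 0.46 and 0.60. The 6 rows of NKG2D ligand genes had medians of 0.70 and 0.83, and their differences lay between -0.20 and 0.29. All of these rows but H60c overlapped other listed rows. Raet1b and the shared row of Raet1c and Raet1e had identical values, so these medians do not rest on separate places. Other natural killer cell genes had medians of 0.72 and 0.81 over 21 rows, none of which differed by 2-fold. The granzyme genes among them varied in WT, with 1.37 at Gzma, 1.19 at Gzmb, -0.69 at Gzmk and -1.68 at Gzmm. Of 8 lectin receptor genes with like symbols on other chromosomes, 2 were at least 2-fold lower, a share near the autosomal 20.4%. They were Clec11a, from 0.28 to -1.30, and Clec4g, from 1.34 to 0.30.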

How the data were processed

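The authors deposited 1 table with a symbol, an interval, a strand and 2 log2 enrichment values per gene, WT and MD1, from 4 libraries. The submitters' processing notes name mm9, and no source used here gives the aligner, the counting or the scaling. Of the deposited values, 99.99% in WT and 99.98% in MD1 equal log2 of a whole-number ratio with terms up to 20000 plus 1 constant per genotype, within a relative tolerance of 1e-11. Only the reduced form of each ratio can be recovered: the depth is unknown, and no counting interval is given. Starts count from 0 in the table and are printed from 1.

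The members and gene lists were chosen with earlier results of these data known. Every member was accounted for, and those named in full follow a written rule: rows past 2-fold, extremes of each family, overlapping rows and well-known receptors. No filter was applied to low values. Differences, medians, percentiles and level-matched differences were computed with Python 3.11.15, numpy 2.4.6 and pandas 2.3.3, and the code was tested on simulated data. Sequences are RefSeq promoter windows of GRCm38.p6, used without converting coordinates. Alternatives covered pseudocounts, a filter, centring, overlaps, denominators and other limits, and 2 were added after the data were seen: 1 row per place, and leaving out Klra rows.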

Additional observations from a re-analysis of the deposited data

How the results depend on the processing

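The 2 lower and 3 higher rows, and the median difference of 0.16, depended most on the overlapping Klra rows and on the scale. With overlapping rows left out (41 rows), 0 were lower and 0 higher and the median turned to -0.011. Among autosomal genes without overlaps 19.8% were lower and 1.62% higher. Without Klra rows the counts were also 0 and 0, and the median turned to -0.014. With 1 row per place 1 was lower and 2 were higher, with a median of 0.11. Centred on the autosomal median, 0 were lower and 10 higher, against 13.3% and 3.22% of autosomal genes, and the median was 0.44. Level-matched, 0 were lower and 6 higher, against 3.40% and 3.16% of autosomal genes, and the median was 0.22. With a pseudocount of 1 added to the unlogged ratio both counts were 0 and the median 0.071. Only 0.156% and 0.176% of autosomal genes passed in that setting, so its counts say little about the members. At a limit of 3-fold both counts were 0, against 7.61% and 0.423% of autosomal genes. At 1.5-fold 9 were lower and 16 higher, against 34.4% and 5.05% of autosomal genes. The median was 0.17 when the lowest 25% of genes by mean level were dropped, 0.11 in the complex alone, 0.13 with denominators of at least 20, and 0.11 as a mean. The percentiles of 52.9 in WT and 56.6 in MD1 became 56.4 and 57.9 among genes of like length, and 61.5 and 60.9 without overlapping rows. Fewer rows were tested where rows were left out, and for the other settings the cause was not tested. With a pseudocount of 0.01, 2 were lower and 2 higher. No paired analysis was possible because each genotype has 1 library of each kind. With no replicates, no difference given here can be set against the spread between cultures.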
